A study of Mus musculus with 10 samples.

Results

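Genes that take up, carry and store fatty acids and pass sterols out of the cell were examined in mouse bone marrow-derived dendritic cells: Fabp4, Fabp5, Cd36, Lpl, Plin2, Pparg, Nr1h3, Abca1 and Abcg1. They were taken by symbol from the RNA count table, and 9 of 9 symbols were found among 24385 genes. The cells came from bone marrow of female wild-type C57BL/6 mice aged 8 to 10 weeks, cultured for 7 days with 20 ng/mL of the growth factor GM-CSF. Non-adherent immature cells were taken on day 6 and kept for 24 h with an apple mango leaf extract (AMLE, 400 µg/mL) or with 0.04% DMSO, the vehicle control. RNA was sequenced from 3 DMSO and 3 AMLE libraries, and open chromatin was measured by ATAC-seq, in which the Tn5 transposase cuts accessible DNA, in 2 DMSO and 2 AMLE libraries of 100000 cells each. No label ties a replicate to its own mouse or culture. The spread between libraries, on which every p-value rests, may therefore be technical. RNA library totals ran from 26010455 to 34208286 counts, and 13075 genes, all 9 members among them, passed the filter on low counts.

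Long-chain fatty acids reach a phagocyte largely as lipoprotein triglyceride, which lipoprotein lipase (Lpl) splits at the cell surface, and the scavenger receptor CD36 takes them up. Inside, the fatty acid binding proteins FABP4 and FABP5 carry them through the cytosol, and perilipin 2 (Plin2) coats the droplets in which their esters are kept. Fatty acids and their oxidised products activate PPARγ (Pparg), a nuclear receptor that pairs with RXR and is well known for switching on Fabp4, Cd36 and Plin2. Oxysterols activate the related LXR receptors, LXRα (Nr1h3) among them, which raise the transporters ABCA1 and ABCG1 that hand cholesterol to apolipoprotein A-I and to HDL.

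PPARγ with RXR classically binds 2 copies of the letters AGGTCA separated by 1 base (DR1), and LXR with RXR binds 2 copies separated by 4 bases (DR4). Both repeats were searched on both strands of the RefSeq promoter windows of build GRCm38.p6, which hold 250 bases before to 50 bases after each listed start, with up to 2 mismatches among the 12 fixed letters. The table holds 8 windows for 5 of the genes: Cd36, Plin2, Abca1, Pparg and Nr1h3. A DR1 match of this kind was in 3.86% of all 32851 windows and a DR4 match in 3.02%. Among the 8 windows, 2 had a DR1 match, at Plin2 and Cd36, and 0 had a DR4 match. The stretches below show the closest matches at Plin2, Cd36 and Abca1, and the Pparg start that lay in open chromatin. In Plin2 (chr4:86670120-86670299, minus strand, bases 240 to 61 before the start) and Cd36 (chr5:17835897-17836076, minus strand, bases 180 to 1 before the start) the capitals mark the DR1 matches, each with 2 mismatches and read on the opposite strand. In Abca1 (chr4:53159896-53160075, minus strand, bases 180 to 1) the capitals mark a DR4 match with 3 mismatches, on the opposite strand, a looser kind held by 21.9% of all windows. In Pparg (chr6:115360964-115361143, plus strand, bases 180 to 1) the capitals mark a single AGGTCA, a half-site that 16.3% of all windows hold. Another Pparg window, at a start outside open chromatin, had a DR4 match with 3 mismatches and is not printed.
Plin2: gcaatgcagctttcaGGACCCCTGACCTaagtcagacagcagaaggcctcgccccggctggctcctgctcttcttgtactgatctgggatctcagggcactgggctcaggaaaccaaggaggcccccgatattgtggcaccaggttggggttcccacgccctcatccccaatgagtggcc
Cd36: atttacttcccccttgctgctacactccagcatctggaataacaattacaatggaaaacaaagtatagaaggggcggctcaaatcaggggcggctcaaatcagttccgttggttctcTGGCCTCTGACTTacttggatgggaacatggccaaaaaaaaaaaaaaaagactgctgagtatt
Abca1: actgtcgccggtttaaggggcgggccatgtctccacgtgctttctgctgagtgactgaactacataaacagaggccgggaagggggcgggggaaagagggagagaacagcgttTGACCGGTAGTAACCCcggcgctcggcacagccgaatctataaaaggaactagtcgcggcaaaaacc
Pparg: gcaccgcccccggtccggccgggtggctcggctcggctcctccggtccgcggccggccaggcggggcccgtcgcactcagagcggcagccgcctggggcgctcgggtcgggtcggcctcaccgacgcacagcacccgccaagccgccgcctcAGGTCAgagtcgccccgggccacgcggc
The Plin2 match lies 225 to 213 bases before the listed start and the Cd36 match 63 to 51 bases before it. The Abca1 and Pparg stretches lay whole, 180 bases each, inside a region called open in 4 of 4 ATAC libraries. The Plin2 match lay 149 bases outside the open region over that promoter, and the Cd36 match 3681 bases from the nearest open region. The listed Cd36 start (17835896) lies inside the gene span (17781690-17888959), and any start elsewhere in Cd36 was not searched. Such letter matches are descriptions of sequence and do not show that a receptor was bound.

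In AMLE-treated cells the lipid carriers rose, droplet coat protein mRNA rose slightly, the LXRα mRNA fell, and neither uptake gene nor either efflux transporter passed the test. By edgeR's quasi-likelihood test with Benjamini-Hochberg adjustment over 13075 genes (called at an adjusted p below 0.05), Fabp4, Fabp5 and Plin2 were called higher, Nr1h3 was called lower, and Cd36, Lpl, Pparg, Abca1 and Abcg1 were not called. Of all tested genes 23.0% were called higher and 25.6% lower, so counts of 3 and 1 among 9 do not set these genes apart from the table. In 3 members all AMLE libraries lay above all DMSO libraries and in 1 they lay below, against 28.3% and 31.4% of tested genes. In either direction, 4 of 9 were called and 4 of 9 did not overlap, against 48.6% and 59.7% of tested genes. The values below are normalised read counts in CPM (reads scaled to the same effective library total), in the order of replicates 1, 2 and 3. In bulk RNA, fewer cells that express a gene and less of its RNA per cell cannot be told apart.

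**Figure D1:**
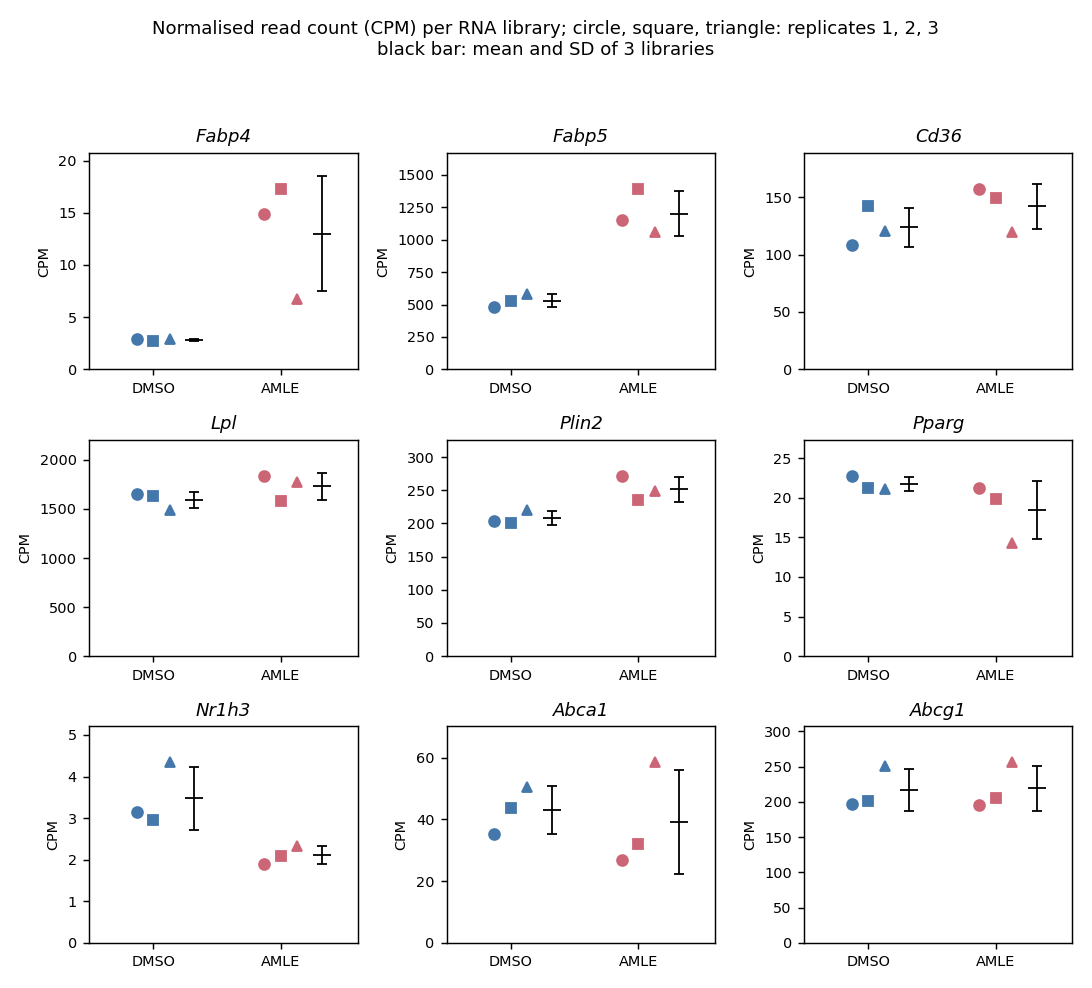
Normalised read count (CPM, linear axes from 0) of the 9 genes in each RNA library, with 3 DMSO libraries in blue and 3 AMLE libraries in red; bars give the mean and SD of 3 libraries. Fabp4 and Fabp5 in AMLE lie well above every DMSO library, Nr1h3 lies below every DMSO library, and Abca1 and Abcg1 overlap.

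Fabp4, the adipocyte-type fatty acid binding protein that macrophages also make, had 91, 76 and 84 reads in the DMSO libraries and 383, 593 and 177 in the AMLE libraries. That is 2.89, 2.67 and 2.89 CPM in DMSO and 14.9, 17.3 and 6.76 CPM in AMLE. The groups did not overlap, and AMLE replicate 3 was the lowest of its group by a wide margin. The mean was 2.82 ± 0.13 CPM (SD, n = 3) in DMSO and 13.0 ± 5.52 CPM (SD, n = 3) in AMLE. The log2 fold change was 2.21 ± 0.34 (SE), a 4.62-fold rise with a 95% interval of 2.62 to 8.13 (edgeR adjusted p = 0.00227). This change was larger than that of 99.4% of tested genes.

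Fabp5, the epidermal-type member of the same family, started from many more reads, 15200, 15022 and 16868 in DMSO, and had 29646, 47741 and 27732 in AMLE. In CPM these were 483, 527 and 581 in DMSO and 1151, 1392 and 1059 in AMLE, with a clear gap between the groups. The mean went from 530.4 ± 49.1 CPM to 1201 ± 172 CPM (SD, n = 3 each). The log2 fold change was 1.18 ± 0.12 (SE), which is 2.26-fold (edgeR adjusted p = 0.0003). Fabp4 and Fabp5 were called higher in 12 of 12 alternative analyses, with log2 fold changes of 1.94 to 2.55 and of 1.07 to 1.34.

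Both genes lie in a cluster of FABP genes on chromosome 3, with Fabp5 at 10012585-10016610 and Fabp4 at 10204342-10208616 (GRCm38.p6). The cluster members between and beyond them were nearly silent, summed over all 6 libraries: Pmp2, the myelin FABP, had 1 read, Fabp9, the testis FABP, had 5, and Fabp12 had 0. Outside the cluster, Fabp1 of the liver had 134 reads, Fabp3 of the heart had 37 and Fabp7 of the brain had 28. Of these 6 relatives, Fabp1 alone passed the low-count filter, and it was not called (log2 fold change 0.64 ± 0.27 SE, edgeR adjusted p = 0.0812).

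Cd36 had 109, 142 and 121 CPM in DMSO and 157, 149 and 120 CPM in AMLE, and the groups overlapped. Its mean was 124 ± 16.9 CPM in DMSO and 142 ± 19.8 CPM in AMLE (SD, n = 3 each), and the log2 fold change of 0.20 ± 0.13 (SE) had a 95% interval of -0.11 to 0.51 (edgeR adjusted p = 0.248). Without AMLE replicate 3, the lowest of its group, the log2 fold change was 0.32 and Cd36 was called higher (adjusted p = 0.0393).

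Lpl, the lipase whose mRNA is also a known mark of lipid-laden phagocytes, had 1649, 1628 and 1493 CPM in DMSO and 1839.6, 1577 and 1779 CPM in AMLE. One AMLE library fell within the DMSO range. The log2 fold change was 0.12 ± 0.08 (SE), from 1590.3 ± 84.7 CPM to 1732 ± 137 CPM (SD, n = 3 each), with a 95% interval of -0.06 to 0.31 (edgeR adjusted p = 0.23).

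Plin2 had 203, 201 and 220 CPM in DMSO and 272, 235 and 249 CPM in AMLE, so the groups were separate but close. Its mean rose from 208 ± 10.4 CPM to 252 ± 18.9 CPM (SD, n = 3 each), a log2 fold change of 0.28 ± 0.07 (SE) or 1.21-fold (edgeR adjusted p = 0.0133). The call was lost without DMSO replicate 1 (adjusted p = 0.0539) and without DMSO replicate 2 (adjusted p = 0.0599).

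The mRNA of PPARγ itself was not called. Pparg had 22.8, 21.3 and 21.1 CPM in DMSO and 21.2, 19.9 and 14.3 CPM in AMLE, where replicate 3 was the lowest of all 6 libraries. The mean was 21.8 ± 0.920 CPM and 18.5 ± 3.68 CPM (SD, n = 3 each), and the log2 fold change of -0.24 ± 0.14 (SE) had a 95% interval of -0.57 to 0.10 (edgeR adjusted p = 0.204).

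Nr1h3, which encodes LXRα, fell. Its reads were few, 99, 84 and 126 in DMSO and 49, 72 and 61 in AMLE, or 3.15, 2.95 and 4.34 CPM against 1.90, 2.10 and 2.33 CPM. Every AMLE library was below every DMSO library. The mean went from 3.48 ± 0.753 CPM to 2.11 ± 0.214 CPM (SD, n = 3 each), a log2 fold change of -0.72 ± 0.19 (SE), or 0.608 times the DMSO level (edgeR adjusted p = 0.0191). The call was lost without AMLE replicate 1 (adjusted p = 0.0712) and without AMLE replicate 2 (adjusted p = 0.053). The gene overlaps Acp2 by 18 bases at its higher-coordinate end, and whether the counting used strand is not given in the sources used here.

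Abca1, which loads cholesterol onto apolipoprotein A-I, had 35.1, 43.7 and 50.5 CPM in DMSO and 27.0, 32.0 and 58.5 CPM in AMLE. AMLE replicates 1 and 2 lay below all DMSO libraries and replicate 3 above all of them. The group means were 43.1 ± 7.69 CPM and 39.2 ± 16.9 CPM (SD, n = 3 each), with a log2 fold change of -0.14 ± 0.29 (SE) and a wide 95% interval of -0.83 to 0.55 (edgeR adjusted p = 0.712). Without AMLE replicate 3 the log2 fold change was -0.53 and Abca1 was called lower (adjusted p = 0.031), and without both libraries numbered 3 it was -0.40 (adjusted p = 0.0253).

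Abcg1, which passes cholesterol to HDL, had 197, 202 and 252 CPM in DMSO and 196, 206 and 256 CPM in AMLE. The 2 groups covered almost the same range, with replicate 3 the highest in each. The means were 217 ± 30.2 CPM and 219 ± 32.1 CPM (SD, n = 3 each), and the log2 fold change of 0.02 ± 0.13 (SE) had a 95% interval of -0.29 to 0.33 (edgeR adjusted p = 0.92). Within same-numbered pairs of libraries the log2 differences of Abcg1 were -0.01, 0.03 and 0.03, whereas those of Abca1 were -0.38, -0.45 and 0.21. Those of Fabp4 were 2.34, 2.66 and 1.21, all upward, and those of Nr1h3 were -0.70, -0.48 and -0.87, all downward.

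**Figure D2:**
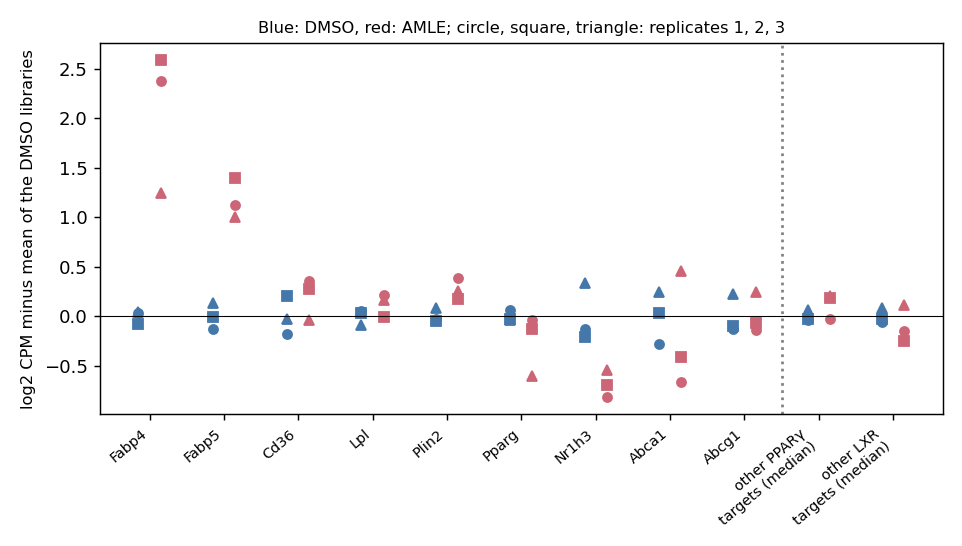
Log2 CPM of each gene in each RNA library minus its mean over the 3 DMSO libraries, with the median of the other listed PPARγ and LXR targets at the right; blue is DMSO, red is AMLE, and circle, square and triangle are replicates 1, 2 and 3. AMLE replicate 3 (red triangle) has the smallest Fabp4 difference, the lowest Pparg and the highest Abca1 of the AMLE libraries.

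AMLE replicate 3 stood apart in several members, so the make-up of the cultures was read from marker genes. The adipocyte list was at the floor: Lep and Plin1 had 0 reads in all 6 libraries, and the 7 markers together had 107 reads, a summed level of 0.310 to 0.604 CPM in DMSO and 0.758 to 0.840 CPM in AMLE, and the 1 that could be tested was not called. Dendritic cell markers, led by Cd74, the MHC class II invariant chain, summed to 6414 to 9707 CPM in DMSO and 7112 to 8256 CPM in AMLE, with 4 of 10 called higher and 2 lower. Macrophage markers, led by the M-CSF receptor Csf1r, summed to 1617 to 1984 CPM in DMSO and 875 to 1535 CPM in AMLE, with 7 of 10 called lower and 1 higher. Markers of alveolar-type macrophages, cells that are rich in PPARγ and grow with GM-CSF, summed to 4691, 3776 and 3120.1 CPM in DMSO and to 8190.4, 7989 and 2696 CPM in AMLE. Chil3, a chitinase-like protein, led that list, and 2 of its 7 tested markers were called higher and 1 lower. Nearly all of that sum was Chil3 (7765, 7596 and 2348 CPM in AMLE; not called, adjusted p = 0.198), which like Fabp4 was lowest in AMLE replicate 3. Siglecf (40.8, 48.2 and 34.4 CPM) and Car4 (325, 297 and 232 CPM) were also lowest in that library. Bhlhe41 (10.2, 7.26 and 14.9 CPM), Atp6v0d2 (46.4, 38.9 and 62.5 CPM) and Marco (1.36, 0.612 and 3.36 CPM) were highest there. Ear2 (1.82, 1.37 and 1.38 CPM) was neither. Mast cell and basophil markers summed to 358, 364 and 214 CPM in DMSO and 617, 670.3 and 347 CPM in AMLE, with 4 of 8 called higher. Eosinophil markers, led by Prg2, summed to 1240.1 to 1908 CPM and 1720.3 to 2261 CPM, with 2 of 4 called higher, while lymphocyte markers (20.7 to 29.6 CPM and 20.0 to 29.5 CPM, 1 of 5 called lower) and stromal markers (7.02 to 11.0 CPM and 3.61 to 5.54 CPM, 2 of 3 called lower) were scarce in both groups. Neutrophil markers, led by S100a9, summed to 13361 to 21293 CPM in DMSO and 8878 to 12462 CPM in AMLE, with 6 of 9 tested called lower and 1 higher. In the lists other than the adipocyte one, no marker in the table was at 0 in all libraries. The part of these cell types in the results was not tested.

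The listed targets of PPARγ moved in both directions. For this and each further list, the shares to read its counts against are 23.0% of all tested genes called higher and 25.6% lower. Of 20 genes on the list, 18 were tested, 7 were called higher (Fabp4, Plin2, Tgm2, Hilpda, Mgll and Slc25a20 among them) and 4 lower (Nr1h3, Cpt1a, Acadvl and Ucp2), with a median log2 fold change of 0.16 beside -0.01 for all tested genes. Tgm2, a transglutaminase, rose from 186 ± 17.3 CPM to 371 ± 55.1 CPM (SD, n = 3 each), a log2 fold change of 1.00 ± 0.12 (SE, edgeR adjusted p = 0.000814). Hilpda, a droplet protein that inhibits triglyceride lipase, rose from 5.71 ± 0.935 CPM to 11.2 ± 0.748 CPM, and Mgll, monoacylglycerol lipase, from 96.6 ± 3.80 CPM to 147 ± 29.8 CPM. Besides Nr1h3, Cpt1a, which admits fatty acids to mitochondria, fell by 0.42 on the log2 scale. Acadvl, a very-long-chain acyl-CoA dehydrogenase, fell by 0.38 and the uncoupling protein gene Ucp2 by 0.54. Slc25a20, a mitochondrial carrier gene called higher, rose by 0.33. Without the 5 members on the list, 5 of 13 were called higher and 3 lower, with a median of 0.14.

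The listed targets of LXR also moved in both directions. Of 21 genes, 16 were tested, 2 were called higher (Tgm2 and Arl4c, beside 23.0% of all tested genes) and 5 lower (Apoe, Pltp, Nr1h3, Fasn and Lpcat3, beside 25.6%), with a median log2 fold change of -0.11. Apoe, an acceptor of effluxed cholesterol, had 49.5, 80.8 and 32.2 CPM in DMSO and 22.6, 21.6 and 14.4 CPM in AMLE, and its log2 fold change was -1.47 ± 0.34 (SE, edgeR adjusted p = 0.0115). Pltp, the phospholipid transfer protein, went from 19.0 ± 1.47 CPM to 9.47 ± 1.09 CPM (SD, n = 3 each; edgeR adjusted p = 0.000375). Fasn, fatty acid synthase, went from 378 ± 3.80 CPM to 261 ± 18.7 CPM, and Arl4c, a small GTPase, from 176 ± 20.5 CPM to 269 ± 15.4 CPM. Lpcat3, a phospholipid-remodelling enzyme, fell by 0.23 on the log2 scale (adjusted p = 0.0395), a call lost without any single library other than AMLE replicate 3 (0.0635 to 0.134). Without the 4 members on the list, 2 of 12 were called higher and 4 lower, with a median of -0.11. With the replicate number as a block, 5 LXR targets were called higher, the added ones being the desaturases Scd1 (adjusted p = 0.000264) and Scd2 (0.0276) and the ubiquitin ligase gene Mylip (0.0486), and 6 were called lower, Mertk (0.0429) being added. Lpl, Nr1h3 and Tgm2 stand on both lists, which are therefore not separate sets, and the difference between the lists was not tested.

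**Figure D3:**
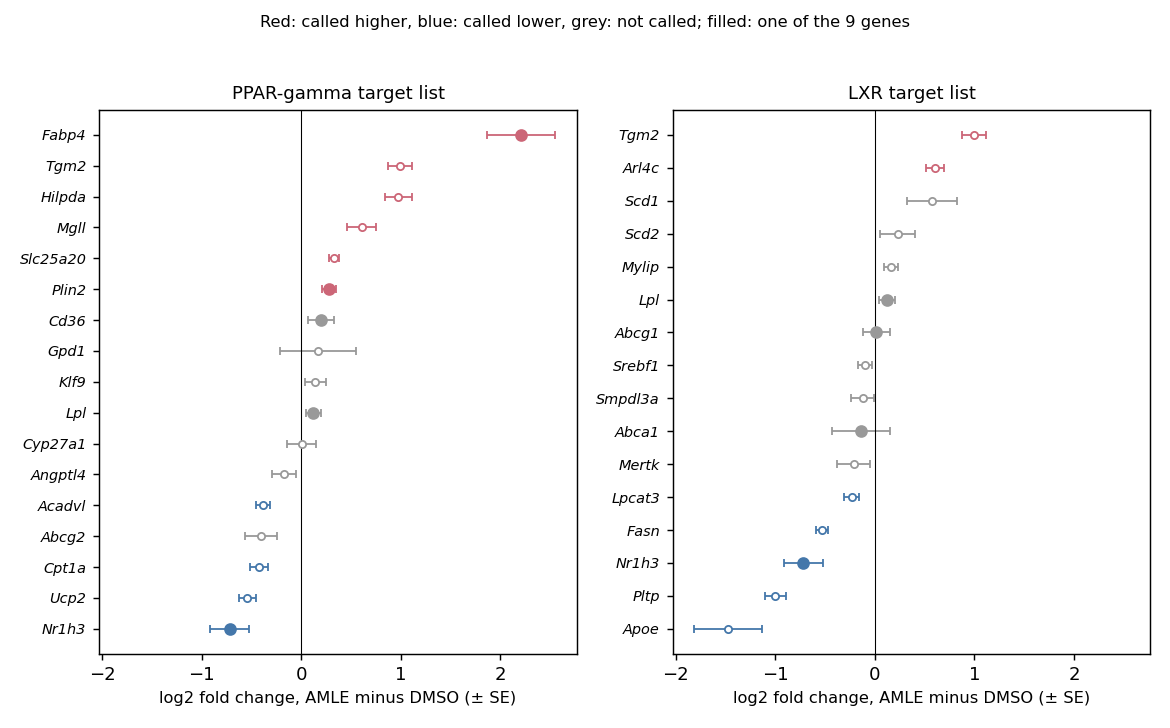
Log2 fold change (AMLE minus DMSO, with SE) of the tested PPARγ targets (17 of the 18 are drawn) at the left and the 16 tested LXR targets at the right; red marks genes called higher, blue genes called lower, grey genes not called, and filled points are among the 9 genes. Fabp4 has the highest value on the PPARγ list, and Abca1 and Abcg1 sit near 0 in the middle of the LXR list.

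On the LXR list, replicate 3 was the highest library in both groups. Relative to the DMSO mean, the median of the 12 LXR targets outside the 9 genes was -0.15, -0.25 and 0.12 on the log2 scale in AMLE replicates 1, 2 and 3. In DMSO replicates 1, 2 and 3 it was -0.06, -0.02 and 0.09. The median of the 13 PPARγ targets outside the 9 genes was -0.03, 0.18 and 0.20 in AMLE and -0.04, -0.03 and 0.06 in DMSO. Without AMLE replicate 3, 8 LXR targets were called lower, Abca1, Mertk and Smpdl3a being added, whereas leaving out AMLE replicate 1 or AMLE replicate 2 left 3 such calls. Over all tested genes, lower calls also became more numerous without AMLE replicate 3 and fewer without AMLE replicate 1 or AMLE replicate 2. The direction of these shifts is therefore not particular to the LXR list.

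Fatty acid and lipoprotein uptake had 14 tested genes, with 5 called higher (beside 23.0% of all tested genes) and 0 lower (beside 25.6%) by edgeR (1 lower at an unadjusted p below 0.05, 1 lower by limma-voom and with the replicate block, 0 by DESeq2). When the list was read without any of the 9 genes, 3 of 10 were called higher. The median log2 fold change was then 0.04, in place of 0.16. Besides Fabp4 and Fabp5, the receptors Vldlr and Olr1 rose. The VLDL receptor gene Vldlr had 1.08, 0.807 and 0.930 CPM in DMSO and 3.96, 3.82 and 2.83 CPM in AMLE (log2 fold change 1.91 ± 0.21 SE, edgeR adjusted p = 0.00043). Olr1, the receptor for oxidised LDL, rose from 23.8 ± 4.52 CPM to 53.5 ± 2.62 CPM (SD, n = 3 each). The scavenger receptor gene Msr1 had 200.5, 209 and 218 CPM in DMSO and 98.1, 64.3 and 184 CPM in AMLE, separate groups that did not pass the test (adjusted p = 0.075). Without AMLE replicate 3, Msr1 (adjusted p = 0.00117) and Scarb1 (0.00834) were called lower, and without both libraries numbered 3 the lower calls were 3, Slc27a4 (0.0384) being added.

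Droplet storage genes were divided, with 4 of 17 called higher and 4 lower and a median log2 fold change of -0.10. Hilpda, Plin2, Acsl4 and the phosphatidate phosphatase Lpin2 (0.35) rose, while Acsl3 (-0.47), Acsl5, Gpam and Bscl2 fell. The lower count rested on single libraries: leaving out DMSO replicate 1 gave 1, DMSO replicate 2 gave 2, and AMLE replicates 1 and 2 gave 1 each. Acsl3, which activates fatty acids at the droplet, had an adjusted p of 0.0384 and of 0.0653 to 0.119 without any single library other than AMLE replicate 3. Gpam (0.0399) was not called by DESeq2 (0.0946), with RLE factors (0.0525) or without any single library (0.0568 to 0.116). Bscl2 (0.0459) was not called by DESeq2 (0.0734) or with RLE factors (0.0599). Its call was also lost without any single library other than DMSO replicate 2 (0.0603 to 0.125). Plin3, another droplet coat gene, was not called (adjusted p = 0.157), nor were the triglyceride synthases Dgat1 (0.274) and Dgat2 (0.106). Without DMSO replicate 3, Dgat1 (0.0106) and Dgat2 (0.0123) were called lower. The same held without both libraries numbered 3 (0.00398 and 0.00725).

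Of 8 tested lipolysis genes, 3 were called higher (Mgll, Lipe and Pnpla8) and 2 lower (Abhd5 and Nceh1). Abhd5, the activator of adipose triglyceride lipase, had 83.9, 80.2 and 79.5 CPM in DMSO and 53.3, 45.0 and 56.4 CPM in AMLE, separate groups with a log2 fold change of -0.66 ± 0.08 (SE, edgeR adjusted p = 0.000848). The lipase gene Pnpla2 that it activates was not called (adjusted p = 0.603). Nceh1, a cholesteryl ester hydrolase, fell by 0.51 on the log2 scale (adjusted p = 0.0436), a call that ended without any 1 of the libraries except AMLE replicate 3 (0.0675 to 0.129), which leaves 1 lipolysis gene called lower. Lipa, the lysosomal acid lipase, was not called (log2 fold change -0.05, adjusted p = 0.733).

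The 13 tested genes of sterol efflux and transport, Abca1 and Abcg1 among them, gave 2 higher and 2 lower calls, with a median log2 fold change of -0.05. Abcg4, a sterol transporter related to ABCG1, had 1.14, 2.04 and 1.10 CPM in DMSO and 7.38, 7.90 and 7.98 CPM in AMLE, with no overlap (log2 fold change 2.44 ± 0.23 SE, edgeR adjusted p = 0.000226). Npc2, which carries cholesterol out of the lysosome, rose from 509 ± 47.5 CPM to 747 ± 30.6 CPM (SD, n = 3 each), and Apoe and Pltp were the genes called lower. With the replicate block, and also without AMLE replicate 3, 5 were called lower.

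Several genes of fatty acid breakdown and of synthesis fell. Of 12 tested oxidation genes 3 were called higher and 5 lower: Acaa2, which ends the β-oxidation cycle, fell from 48.5 ± 1.21 CPM to 34.0 ± 1.95 CPM (SD, n = 3 each; edgeR adjusted p = 0.000524), beside Cpt1a, Acadvl, Hadhb and Hadha. Hadha had an adjusted p of 0.0196, and of 0.0523 to 0.0619 without DMSO replicate 2 or 3 or AMLE replicate 1 or 2. Of 11 tested synthesis genes 4 were called lower and 0 higher by edgeR (0 higher at an unadjusted p below 0.05, 1 higher by DESeq2, 0 by limma-voom, 2 with the replicate block and 1 without DMSO replicate 3). Elovl6, which elongates palmitate, went from 43.8 ± 5.08 CPM to 21.0 ± 4.12 CPM (log2 fold change -1.07 ± 0.15 SE, edgeR adjusted p = 0.00153), and Acaca, acetyl-CoA carboxylase, fell by 0.32 on the log2 scale (adjusted p = 0.0152, and 0.0542 without AMLE replicate 1). Without AMLE replicate 1 the synthesis genes called lower were 2 in number.

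The receptors that partner or parallel PPARγ and LXRα did not move together. Ppard, the gene of PPARδ, had 56.4, 57.7 and 54.7 CPM in DMSO and 84.2, 75.5 and 82.1 CPM in AMLE, separate groups with a log2 fold change of 0.52 ± 0.06 (SE, edgeR adjusted p = 0.000412). Ppara and Rxrg had 0 reads in all 6 libraries. Nr1h2, the gene of LXRβ, rose from 113 ± 3.36 CPM to 129 ± 7.44 CPM (adjusted p = 0.0292), but without DMSO replicate 1, 2 or 3 or AMLE replicate 1 the adjusted p was 0.0595 to 0.088. Ppargc1b, a coactivator, fell by 0.80 on the log2 scale (adjusted p = 0.0159, and 0.0572 without AMLE replicate 1). Rxra, the shared partner of both receptors, fell by 0.49 (adjusted p = 0.0475) in overlapping groups, and the call was lost with RLE factors (0.0502), when genes of low count were kept (0.0807), and without DMSO replicate 2 or 3 or AMLE replicate 1 or 2 (0.0765 to 0.144). Over all 13 tested receptors and cofactors 3 were called higher and 4 lower, but 1 was lower without AMLE replicate 1 and 2 without AMLE replicate 2, and Ncor1, the corepressor, was not called (adjusted p = 0.356).

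Open chromatin around the 9 genes was read from the authors' peak lists, which gave 18460 and 19225 intervals in the DMSO libraries and 15805 and 15597 in the AMLE libraries, which merged into 24542 regions. Within 10 kb of the 9 gene bodies lay 24 regions, 19 and 18 of them called in DMSO and 16 and 15 in AMLE. A peak in 4 of 4 libraries was found at 12 of the 24, near the 49.0% of all regions. Peaks in both DMSO and neither AMLE library were found at 2 (5.95% of all regions) and the reverse at 1 (0.460%), numbers too small to set the genes apart. A peak list shows only whether a region passed the caller's threshold in a library, so no test was made, and the fold enrichments below are the authors' values, in the order DMSO 1, DMSO 2, AMLE 1 and AMLE 2.

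**Figure D4:**
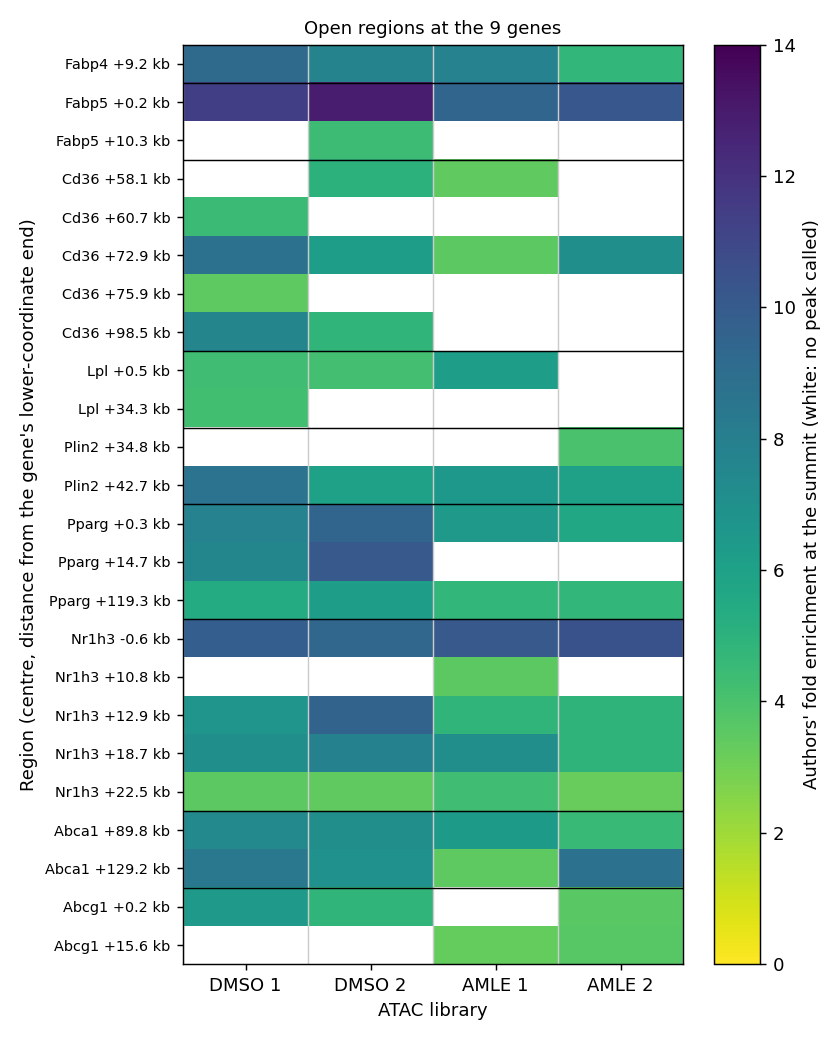
Authors' fold enrichment (colour scale) of the peak in each of 4 ATAC libraries, for the 24 merged regions within 10 kb of the 9 genes, each placed by the distance in kb of its centre from the gene's lower-coordinate end; white means that no peak was called. The regions at the starts of Plin2 and Pparg are filled in every library, and Pparg +14.7 kb and Cd36 +98.5 kb are filled in the DMSO libraries alone.

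None of the 3 genes that rose had a region called in both AMLE libraries and neither DMSO library. Fabp5 had a region over its lower-coordinate end (chr3:10012211-10013274) with enrichments of 11.4, 12.9, 9.46 and 10.2. The region of Fabp4 was not at the gene but 4597 bp beyond its higher-coordinate end (chr3:10213213-10213934), with 9.15, 7.73, 7.79 and 4.73. Plin2 had one over its promoter (chr4:86669187-86670122) with 8.69, 6.00, 6.52 and 6.01, and a peak inside the gene that was called in AMLE 2 alone (4.04).

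Pparg had a region at its first listed start (chr6:115360825-115361627) with 7.80, 9.43, 6.43 and 5.61, and one near its far end (chr6:115479851-115480560) with 5.36, 6.17, 4.73 and 4.73. Another, inside the gene 13218 bp from the nearest listed start (chr6:115375234-115375901), had 7.55 and 10.1 in DMSO and no peak in either AMLE library. Nr1h3, whose mRNA fell, had 4 regions in all libraries, none of them over a listed promoter window. One of them (chr2:91182891-91184080) also lies at the neighbouring gene Madd, with 9.83, 9.39, 10.1 and 10.5, and another (chr2:91196677-91197179), inside the gene, had 6.68, 9.56, 4.84 and 4.92. The other 2 also lie at Acp2. A further Nr1h3 region (chr2:91194783-91195012), over a listed promoter window, was called in AMLE 1 alone (3.50, with a -log10 q of 1.71).

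Cd36 had 5 regions: 1 in all libraries (chr5:17854251-17854936, with 8.70, 6.21, 3.54 and 7.05), 1 in the DMSO libraries alone (chr5:17879966-17880354, with 7.65 and 4.85) and 3 in 1 or 2 libraries. Lpl had a region over its lower-coordinate end (chr8:68880528-68881585) with 4.30, 4.19 and 6.13 in DMSO 1, DMSO 2 and AMLE 1 and no peak in AMLE 2. Abca1 had its promoter region (chr4:53159787-53160159), which spans the whole stretch printed above, with 8.41, 6.91, 3.46 and 8.74, and one 39322 bp into the gene (chr4:53120258-53120888) with 7.41, 7.09, 6.37 and 4.50. Abcg1 had a region at its lower-coordinate end (chr17:31057574-31058224) with 6.45, 4.82 and 3.56 and no peak in AMLE 1. It also had the only region of the 24 called in both AMLE libraries and neither DMSO library (chr17:31073169-31073514), with enrichments of 3.30 and 3.65 and -log10 q values of 1.59 and 1.94, close to the lowest value in the lists (1.30).

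Around the PPARγ targets, 50 regions were found, of which 34 were called in all libraries (68.0%, beside 49.0% of all regions), 6 in both DMSO libraries alone (beside 5.95%) and 0 in both AMLE libraries alone. Those 6 lay at Cpt1a (2), Ucp2 (2), Acadvl (1) and Cd36 (1), and the mRNA of the first 3 of these genes fell. Nr1h3, the other target that fell, had no such region, with 4 of 5 called in all libraries. Mgll, which rose, had 6 of 6 regions called in every library. Around the LXR targets, 42 regions gave 26 in all libraries (61.9%), 1 in both DMSO libraries alone and 1 in both AMLE libraries alone (2.38% each).

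For each of the 9 genes, the genes whose log2 CPM followed it most closely over the 6 RNA libraries were found among 8963 or 8964 genes with a mean of at least 10 CPM. The 6 points share 2 groups and their library sizes, and the highest of so many correlations is high by selection, so r is a description only. Genes picked by r over these libraries largely share the member's difference between the groups. Their calls below therefore follow from the choice and are no separate result. Fabp5 was followed by Etv3 (r = 0.9993), a repressor of the ETS family, Rgs1 and Mfhas1, and Fabp4 by Zbtb40 (r = 0.996), Rtcb and Ccnt2. All 6 of these genes were called higher, Rgs1 from 18.5 CPM to 55.4 CPM and Etv3 from 278 CPM to 594 CPM. Plin2 was followed by Sema6b (r = 0.984), Zfp61 and Scly, and Nr1h3 by Txndc16 (r = 0.9958), the small GTPase gene Rac1 and Aldh9a1, which were called in the same direction as their partners. The nearest genes to the members that were not called were themselves not called: Rps26 for Cd36 (r = 0.9768), Ubtd1 for Lpl (r = 0.9904), Rpl38 for Pparg (r = 0.9911), Plcb3 for Abca1 (r = 0.9873) and Magee1 for Abcg1 (r = 0.9947). Rps26 and Rpl38 encode ribosomal proteins that have near-identical copies in the genome, so their counts are uncertain.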

How the data were processed

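Gene counts, peak fold enrichments and −log10 q-values are the deposited values. Per the submitters' processing notes, reads were handled with Trim Galore 0.6.7, STAR 2.7.11b, Bowtie2 2.4.4, SAMtools 1.7 and MACS3 3.0.0a7 on build mm10. The tool, annotation and strand setting behind the authors' counts are, in the sources used here, not given. The RNA kit is stranded, per the labels' protocols. Each peak's ratio (fold enrichment at the summit) and −log10 q were made by the authors' caller, one list per library.

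Counts as deposited were fitted in edgeR 4.0.16 (TMM factors, filterByExpr with a minimum count of 10, robust quasi-likelihood test, two-sided, 3 against 3 libraries, no covariate) under R 4.3.3, with Benjamini-Hochberg adjustment over 13075 genes. The script was tested on simulated counts. CPM used TMM-scaled totals, and log2 CPM a prior count of 2. Totals of 26010455 to 34208286 counts make counting error small beside the spread between libraries, except for genes with few reads. Of 24385 genes, 6459 had no count.

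Libraries with the same replicate number deviated alike: deviations from the group mean correlated at 0.29, 0.283 and 0.43 for the same number in both groups, and at -0.309 to 0.105 for others. Deviations within a group sum to 0, so the lower values for others are not separate evidence of pairing. The labels do not say what a number marks.

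Peak intervals of the 4 ATAC libraries were merged with bedtools 2.31.1, and a region belonged to a gene within 10 kb of its body (1 base of overlap). No read counts per region were used, so no test was made. Gene positions and promoters come from RefSeq, build GRCm38.p6, to which 24277 symbols matched. Peak sequences were not used here.

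The 9 genes, the lists and the tests were chosen with earlier results of these data known. Named beside the 9 were, from each lipid list, the 3 called genes with the largest change at a mean of at least 1 CPM and the one with the highest CPM, the leading gene of each marker list, and the 3 genes with the highest Pearson r to each member. Other genes named were chosen after their values were seen. Listed genes counted but not named are not reported here. Alternatives were DESeq2 1.42.0, limma-voom (limma 3.58.1), RLE factors, no low-count filter, a replicate block, each library left out, both libraries numbered 3 left out, other peak thresholds, overlaps and windows, and other mismatch limits.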

Additional observations from a re-analysis of the deposited data

How the results depend on the processing

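Of the 9 log2 fold changes under 12 alternatives each (108 values), 97 kept their direction and their side of the threshold, 4 lost a call, 3 gained one, 4 uncalled values crossed 0 and none of a called gene changed sign. The number of the 9 genes called higher stayed within 1.5 times of 3. The number called lower (1) was 0 to 2 when single libraries were left out and 2 without both libraries numbered 3. With the replicate block, which treats same-numbered libraries as pairs, none of the 9 calls changed (Pparg had an adjusted p of 0.0723). In that fit 5 LXR targets were called higher in place of 2, and 6 lower in place of 5. LXR targets called lower (5) were 3 to 8 when single libraries were left out, and lower calls over all tested genes moved in the same direction each time. Droplet storage genes called lower (4) were 2 with DESeq2 and with RLE factors. The causes were not tested beyond the libraries named above.

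Regions in all libraries (12) were 2 at −log10 q of at least 10 and 19 with a 50 kb window. Regions in DMSO alone (2) were 5 at the stricter q and 3 to 5 when single libraries were left out, and regions in AMLE alone (1) were 0 at the stricter q and 1 to 2 when single libraries were left out, as each peak then had fewer libraries to appear in. DR1 windows (2) were 0 at up to 1 mismatch, and DR4 windows (0) were 2 at up to 3 mismatches, a limit chosen after seeing the data. Genes of few reads, such as Nr1h3, are limited by depth.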
